A study of Mus musculus with 6 samples.

Results

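Phase II conjugation enzymes couple drugs, hormones, bile pigments and reactive by-products to a polar group, so that the product can leave the cell in bile or urine. The genes described here are the 71 rows of the count table, of 53715 in all, whose Ensembl ID maps to a protein-coding mouse symbol beginning with Gst (classes alpha, kappa, mu, omega, pi, theta or zeta), Mgst, Ugt or Sult and followed by a number, or to Nat1, Nat2 or Nat8. They comprise 22 glutathione S-transferase genes of these classes, 3 microsomal glutathione S-transferase genes, 22 UDP-glycosyltransferase genes, 21 sulfotransferase genes and 3 N-acetyltransferase genes. All 71 symbols of the annotation that meet this rule are in the table.

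The RNA was polyadenylated RNA from the livers of 8-week-old F1 male mice of the ICR strain, an outbred stock. The series compared 3 libraries of the control F1 group with 3 of the FR F1 group, called control and FR libraries below. The labels give the fathers of the FR F1 animals a history of famine, while the title of the series speaks of overdiet, and FR is not spelled out. The groups are therefore named here as the labels name them. The labels do not say whether each library came from a separate animal, so the p-values measure the spread between these libraries, which may be technical.

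Glutathione S-transferases attach the tripeptide glutathione to electrophiles, UDP-glucuronosyltransferases attach glucuronic acid from UDP-glucuronate, sulfotransferases attach sulfate from the donor PAPS, and N-acetyltransferases attach an acetyl group from acetyl-CoA. The hepatocyte carries large amounts of all of these families. Several of the genes are known targets of the antioxidant factor NRF2, of the dioxin receptor AHR, of the nuclear receptors CAR and PXR, or of the liver factors HNF1 and HNF4.

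Among 44 phase II genes with enough counts to be tested, 1 passed the threshold. The sulfotransferase gene Sult5a1 fell, from 193 ± 25.2 CPM in the control libraries to 74.1 ± 20.5 CPM in the FR libraries (mean ± SD, n = 3 per group). CPM is the count of a gene scaled to the size of its library, after TMM normalisation. The remaining 43 did not pass in either direction (edgeR quasi-likelihood F test, with p adjusted by Benjamini-Hochberg over all 13022 tested genes and a threshold of 0.05). One call of 44 is 2.27%, beside 0.837% of all tested genes, 0.392% called higher and 0.445% called lower. Within the families, mu class glutathione S-transferase genes on chromosome 3 had positive differences in 6 of 7 cases (5 of 7 with no filter and without control F1 replicate 3 or FR F1 replicate 1). The UGT1 genes had negative differences in 4 of 5 tested, 1 of them Ugt1a9 at -0.0001, and in 3 of 5 under 8 of 15 alternative settings, RLE and upper quartile scaling among them.

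Sequence upstream of the start site is shown for 5 genes. They are Sult5a1, the gene that passed, Gstm4 and Gstm2, which have the smallest p in their family, Ugt1a1, which has the smallest p among UGT1 genes, and Ugt2a3, whose window holds a repeated motif match. The windows come from RefSeq on GRCm38.p6 and end at the base before the annotated start, taking the more upstream of the RefSeq and GENCODE starts. They lie at chr8:123158316-123158530 on the minus strand for Sult5a1, chr3:108044895-108045109 on the minus strand for Gstm4, chr3:107986454-107986670 on the minus strand for Gstm2, chr1:88211709-88211958 on the plus strand for Ugt1a1 and chr5:87337196-87337445 on the minus strand for Ugt2a3. Each is written 5′ to 3′ on the strand of its gene, and capitals mark letters that match a searched motif on either strand.
Sult5a1: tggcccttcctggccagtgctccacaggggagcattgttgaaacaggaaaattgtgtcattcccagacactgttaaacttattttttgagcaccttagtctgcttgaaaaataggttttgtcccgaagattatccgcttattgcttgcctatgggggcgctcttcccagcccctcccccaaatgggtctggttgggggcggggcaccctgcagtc
Gstm4: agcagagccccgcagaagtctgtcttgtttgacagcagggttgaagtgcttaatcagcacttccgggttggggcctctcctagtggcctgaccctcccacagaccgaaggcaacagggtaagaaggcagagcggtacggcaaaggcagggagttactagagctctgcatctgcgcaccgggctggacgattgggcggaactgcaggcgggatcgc
Gstm2: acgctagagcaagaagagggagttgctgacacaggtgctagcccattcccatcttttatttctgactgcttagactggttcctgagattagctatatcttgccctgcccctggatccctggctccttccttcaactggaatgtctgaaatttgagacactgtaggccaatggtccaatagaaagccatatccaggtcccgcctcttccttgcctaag
Ugt1a1: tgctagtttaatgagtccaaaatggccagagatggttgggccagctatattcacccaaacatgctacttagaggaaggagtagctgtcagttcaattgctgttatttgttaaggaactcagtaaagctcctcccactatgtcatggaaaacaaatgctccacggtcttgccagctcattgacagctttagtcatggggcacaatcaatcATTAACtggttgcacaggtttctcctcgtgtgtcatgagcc
Ugt2a3: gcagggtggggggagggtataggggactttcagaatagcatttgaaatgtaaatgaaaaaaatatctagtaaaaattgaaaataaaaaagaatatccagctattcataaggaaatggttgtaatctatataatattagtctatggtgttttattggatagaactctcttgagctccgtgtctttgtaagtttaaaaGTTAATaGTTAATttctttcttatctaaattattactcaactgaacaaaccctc

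Motifs, 5 in number, were searched on both strands in the 250 bases before the RefSeq start of 61 members and of 20499 genes in all. The HNF1 core GTTAAT had a match in 15 of 61 members (24.6%), beside 5.995% of all promoters. The antioxidant response element core TGACNNNGC had a match in 3 members (4.92%), beside 10.5% of all promoters, and these were Gsta3, Gstm5 and Mgst1. The xenobiotic response element core GCGTG had a match in 10 members (16.4%), beside 32.0%, and in Gstm5 it overlaps the antioxidant match. The D-box TTATGTAA had a match in 1 member, Ugt2b1 at -59 from the start (1.64%, beside 0.854%), and the E-box CACGTG in 0 members, beside 6.43%. Sult5a1, Gstm4 and Gstm2 hold none of these letters in their windows. The Ugt1a1 match lies at -41, and the 2 Ugt2a3 matches lie at -54 and -47. A match is a run of letters and not a measured binding site, and members of a gene cluster share sequence. The shares were not adjusted for the base composition of the windows. Members with an HNF1 match include Sult2a3, Sult2a4, Sult2a5, Sult2a6 and Sult3a2, which held 0 or 1 count each over the 6 libraries.

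Library totals lay between 2279755 and 2730160 counts, and phase II genes took 0.719% to 0.803% of them in 5 libraries and 0.588% in control F1 replicate 3. That library was the lowest of the 6 for 18 of the 44 tested members, where 25.9% of all tested genes had their lowest value there. Its median deviation over the members was -0.17 on the log2 scale, against 0.02 to 0.08 in the other 5 libraries. Several results that move with it are given with and without it, and the others only with it. The counts have an apparent upper limit near 1 count per base pair of transcript, and Gstm1, Gstp1, Mgst1, Ugt2b36, Ugt2b1 and Sult2a8 lie at 0.50 to 0.68 counts per base pair of the longest transcript, so their fold changes may be understated. In single libraries the closest member to that limit was Gstp3, at 0.928 counts per base pair in FR F1 replicate 3. Between control replicates the median coefficient of variation was 19.0% over the tested members, beside 19.9% over all tested genes, and between FR replicates it was 11.2%, beside 14.1%. Markers of hepatocytes had a median log2 fold change of -0.13, with 6 negative, 4 positive and 0 of 10 called by edgeR, DESeq2 or limma-voom. Alb, Tat and Hnf4a, the 3 with an unadjusted p under 0.05, were negative, beside 8.88% of tested genes. Their FR libraries lay wholly below control, beside 13.2%. The summed level of the 10 was 5410 to 6644 CPM in the control libraries and 5533 to 5984 CPM in the FR libraries. Alb, Apoa1, Ass1, Ttr and Tat lie at 0.63 to 0.998 counts per base pair, so their fold changes may also be understated. Markers of endothelial and stellate cells had higher summed levels in every FR library than in any control library. The summed level of 12 liver endothelial markers was 487 to 757 CPM in the control libraries and 899 to 1071 CPM in the FR libraries. All 12 log2 fold changes were positive, beside 50% of tested genes, with 8 at an unadjusted p under 0.05, beside 9.02%. Of these markers edgeR called 0, beside 0.837% of tested genes. DESeq2 called 5, beside 2.75% of genes with an adjusted p, and limma-voom called 1, beside 0.791% of tested genes. The smallest p was that of Tek, an angiopoietin receptor gene, at 1.88 ± 0.33 (adjusted p = 0.0504). The summed level of 11 stellate cell markers was 360.1 to 548 CPM in the control libraries and 805 to 959 CPM in the FR libraries. All 11 log2 fold changes were positive, with 7 at an unadjusted p under 0.05, beside 9.02% of tested genes. DESeq2 called 4 of them, limma-voom called Dcn alone, and edgeR called Pdgfra alone, at 1.53 (adjusted p = 0.0456). For Pdgfra the adjusted p was 0.0505 by limma-voom. By edgeR it was 0.0512 to 0.190 without control F1 replicate 2 or 3 or any 1 FR library. Kupffer cell markers, 10 in number, summed to 336 to 650.5 and 431.5 to 842 CPM, and 7 cholangiocyte markers to 43.3 to 137 and 71.4 to 94.8 CPM, which overlap between groups in both lists. All 10 Kupffer log2 fold changes were positive, with a median of 0.44, 2 at an unadjusted p under 0.05 and 0 called by edgeR, DESeq2 or limma-voom, and the smallest p was that of Adgre1 at 1.12 ± 0.40 (adjusted p = 0.213). Of 2 tested cholangiocyte markers, Sox9 had the smaller p, at 0.96 ± 0.32 (adjusted p = 0.192). Its FR libraries lay wholly above control, as did those of the untested Krt19 at low counts. The other tested marker, Spp1, was at -0.17 ± 0.47 and made up most of the summed level in every library. Spp1 had 39.9, 32.45 and 120 CPM in the control libraries and 44.9, 53.4 and 73.0 CPM in the FR libraries. The overlap of the cholangiocyte sums thus rests on Spp1 in control F1 replicate 3. Lyve1 of endothelium and Cftr of cholangiocytes were among the markers at 0 in at least 1 library, and no marker was at 0 in all. The part of these cells in the phase II results was not tested, and in bulk tissue fewer cells of a type and less RNA per cell cannot be told apart.

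**Figure D1:**
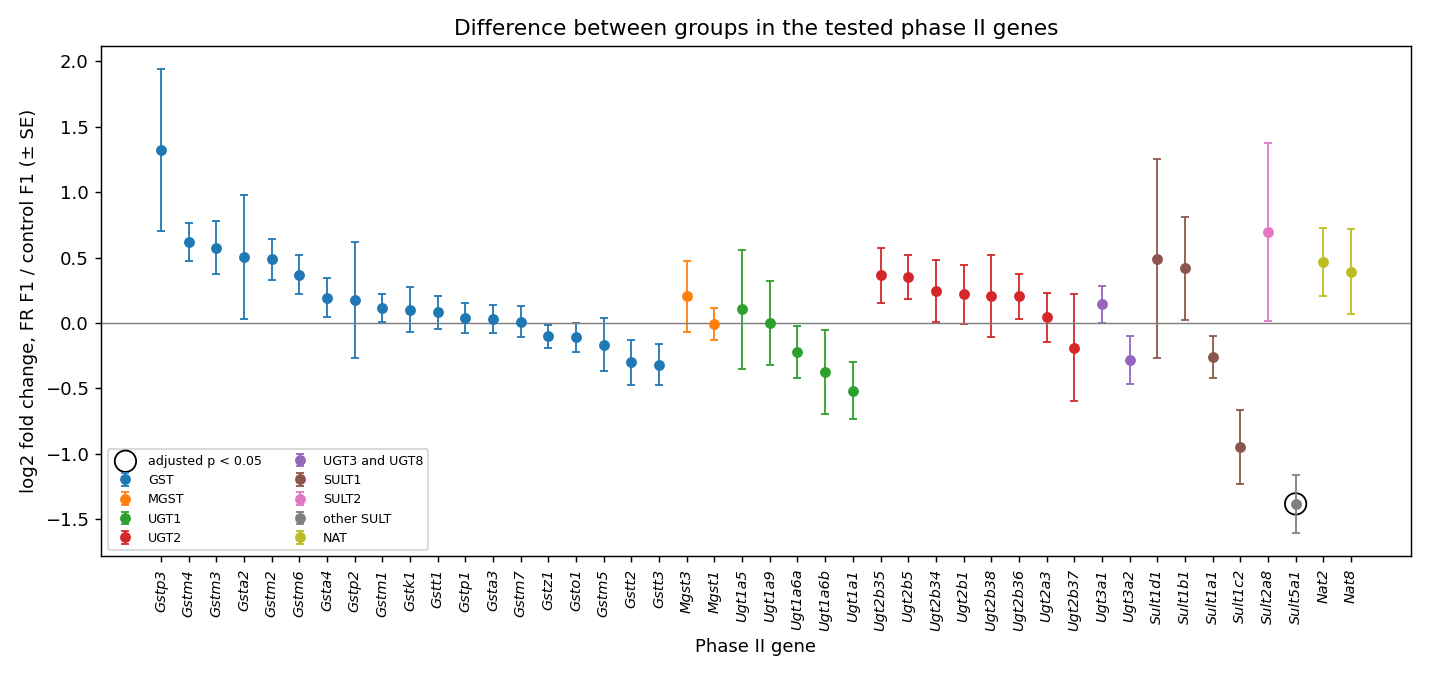
Log2 fold change of FR F1 over control F1 for the 44 tested phase II genes, grouped and coloured by family, with bars of 1 standard error (edgeR, n = 3 per group). The ringed point is Sult5a1 at -1.38, the gene that passed the adjusted threshold, and Gstp3 at 1.32 has an SE of 0.62.

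The fold changes are plotted by family, and most members lie close to 0. Positive differences were seen in 29 of 44 members (65.9%), beside 50% of all tested genes, and the median log2 fold change was 0.11, beside 0.0004 for all tested genes. This balance moves with control F1 replicate 3, since without it 23 members were positive and 21 negative, with a median of 0.02. Groups did not overlap in 11 of 44 members (25.0%), beside 25.7% of all tested genes. In 5 of the 11 the FR F1 libraries all lay above the control libraries, beside 12.5% of tested genes, and in 6 they all lay below, beside 13.2%. The unadjusted p was under 0.05 in 7 members (15.9%), beside 17.9% of tested genes, with 4 positive (9.02% of tested genes) and 3 negative (8.88%). These shares are near those of the table as a whole. By DESeq2, 2 members were called, Sult5a1 and Gstm4, beside 2.75% of 15359 genes with an adjusted p. By limma-voom 1 member was called, Sult5a1, beside 0.791% of tested genes. An edgeR fit with no filter on low counts called 5 members, Sult5a1, Gstm4, Gstm3, Gstp3 and Sult2a8, beside 4.04% of 30930 genes. That fit kept every gene with at least 1 count, so it tested more members than the 44. In Gstp3 and Sult2a8 a single library stood apart, as given below.

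Sult5a1 belongs to the cytosolic sulfotransferases (ENSMUSG00000000739.14, chromosome 8, 123140192 to 123158315, minus strand). It had 494, 444 and 431 counts in control F1 replicates 1, 2 and 3 and 135, 238 and 205 counts in FR F1 replicates 1, 2 and 3. In CPM these are 214, 200.1 and 165 in the control libraries and 50.5, 87.7 and 84.1 in the FR libraries. Every FR F1 library lay below every control library, and FR F1 replicate 1 was the lowest. The log2 fold change was -1.38 ± 0.22 (SE, adjusted p = 0.0404). The adjusted p was 2.7e-05 by DESeq2 and 0.0415 by limma-voom. Of 15 alternative settings 15 kept the direction, with log2 fold changes between -1.52 and -1.16, and 10 kept the call. The call was lost in 4 of the 6 fits that left out 1 library, without control F1 replicate 2 (adjusted p = 0.144) and without FR F1 replicate 1 (0.149), 2 (0.145) or 3 (0.123). It was also lost with a replicate block (0.0931). Only 1.78% of the 50-base stretches of its longest transcript occur in another annotated transcript.

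**Figure D2:**
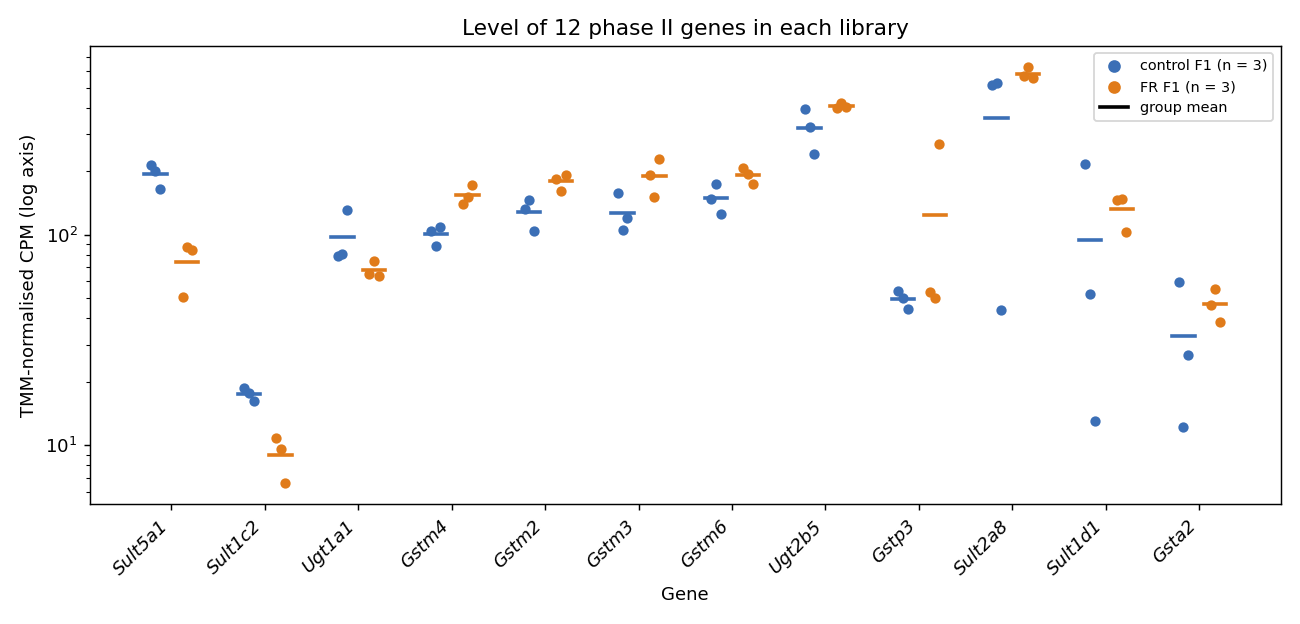
Level of 12 phase II genes by library (log axis, TMM-normalised CPM), with 3 control F1 (blue) and 3 FR F1 (orange) points and a bar at each group mean. Sult5a1 lies between 165 and 214 CPM in the control libraries and between 50.5 and 87.7 CPM in the FR libraries, and single libraries stand apart in Gstp3 (269.6 CPM in FR F1 replicate 3), Sult2a8 (43.7 CPM in control F1 replicate 3) and Sult1d1.

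The other sulfotransferase genes were mostly silent or did not pass. Of 21 in all, 6 were tested, 9 more had between 1 and 36 counts over the 6 libraries, and 6 had 0 counts. Sult1c2, of the SULT1 family of phenol and amine sulfotransferases, had 18.7, 17.6 and 16.1 CPM in the control libraries and 10.8, 9.58 and 6.57 CPM in the FR libraries. The groups do not overlap, and the log2 fold change was -0.95 ± 0.28 (adjusted p = 0.161). Sult1a1, the main phenol sulfotransferase of liver, had 322, 244 and 211 CPM in the control libraries and 231, 206 and 212 CPM in the FR libraries. Its groups overlap, with control F1 replicate 1 the highest, and the log2 fold change was -0.26 ± 0.16 (adjusted p = 0.423).

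Sult1d1 and Sult2a8 varied most between the control libraries among the 6 tested sulfotransferase genes. Sult1d1, known in mouse for the sulfation of catecholamines and related amines, had 218, 52.3 and 13.0 CPM in the control libraries and 147, 147 and 103 CPM in the FR libraries. The control libraries thus lie on both sides of the FR F1 libraries, and the log2 fold change of 0.49 ± 0.76 (adjusted p = 0.749) was 2.03 without control F1 replicate 1 and -0.04 without control F1 replicate 3. Sult2a8, a bile acid sulfotransferase of mouse liver, had 513, 524 and 43.7 CPM in the control libraries and 566.5, 628 and 553 CPM in the FR libraries. Its control F1 replicate 3 held 114 counts while the other libraries held 1162 to 1705. The groups do not overlap, the log2 fold change was 0.70 ± 0.68 (adjusted p = 0.599), and it was 0.17 ± 0.10 without that library. Sult1b1, a thyroid hormone sulfotransferase gene, had 86.7, 57.2 and 27.2 CPM in the control libraries and 65.1, 103 and 59.9 CPM in the FR libraries, which overlap.

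Glutathione S-transferases other than the microsomal ones were the family with the most tested genes, 19 of 22, and 0 were called by edgeR. The unadjusted p was under 0.05 in 4 of the 19, beside 17.9% of all tested genes. DESeq2 called 1, Gstm4, beside 2.75% of genes with an adjusted p, and limma-voom called 0, beside 0.791% of tested genes. Of the 19, 14 log2 fold changes were positive and the median was 0.10. Without control F1 replicate 3, 11 were positive and the median was 0.035. The 7 mu class genes lie in one cluster on chromosome 3, from 107895821 to 108044894. Their median was 0.37, and their summed level was 662, 643 and 582 CPM per kilobase of exon in the control libraries and 773, 726.5 and 831 CPM per kilobase in the FR libraries, so the groups do not overlap in the sum. Without control F1 replicate 3 the median was 0.26, with 5 of 7 positive.

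Gstm4, one of these mu class transferases (ENSMUSG00000027890.17, 108040408 to 108044894), had 104.5, 87.9 and 109 CPM in the control libraries and 139.5, 152 and 172 CPM in the FR libraries. All FR F1 libraries were above all control libraries, the log2 fold change was 0.62 ± 0.15, and the adjusted p was 0.106. It was 0.0494 by DESeq2 and 0.0271 with no filter on low counts, and 0.0694 to 0.309 in the 6 fits that left out 1 library. No 50-base stretch of its longest transcript occurs in another transcript. Gstm2 (107981702 to 107986453) had 133, 146 and 104 CPM in the control libraries and 184, 161 and 192 CPM in the FR libraries, again with no overlap, and a log2 fold change of 0.49 ± 0.16 (adjusted p = 0.181). Gstm6 had 147, 173.5 and 125 CPM in the control libraries and 208, 193.5 and 174 CPM in the FR libraries. Its lowest FR F1 library is above its highest control library by less than 1 CPM, and the log2 fold change was 0.37 ± 0.15 (adjusted p = 0.257). Gstm4, Gstm2 and Gstm6 were the 3 of 7 mu class genes with all FR F1 libraries above control, beside 12.5% of all tested genes.

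Gstm3 had 157, 105 and 120.1 CPM in the control libraries and 191, 151 and 228 CPM in the FR libraries. Control F1 replicate 1 lies above FR F1 replicate 2, so the groups overlap, and the log2 fold change was 0.58 ± 0.20 (adjusted p = 0.208). Of its 50-base stretches 28.8% occur in other transcripts, so part of its count may be shared with near-identical copies. The same holds to a lesser degree for Gstm1 (23.15%), Gstm6 (11.5%), Gstm5 (10.1%) and Gstm2 (9.36%), while Gstm7 shares 0%. Gstm1 had the highest CPM per kilobase of exon among phase II genes, although Mgst1 had more counts per base pair of the longest transcript (0.677 against 0.647). Gstm1 had 332, 340.3 and 293 CPM in the control libraries and 333.5, 337 and 375 CPM in the FR libraries and a log2 fold change of 0.11 ± 0.11. It lies near the apparent count limit, and after counts were expanded toward an assumed limit per base pair its log2 fold change was 0.24 ± 0.12. Gstm7 (0.01 ± 0.12) and Gstm5 (-0.17 ± 0.20), which lie at one end of the cluster, had the smallest values. Gstm3, Gstm5, Gstm6 and Gstm7 are named after their values were seen, to complete the class.

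**Figure D3:**
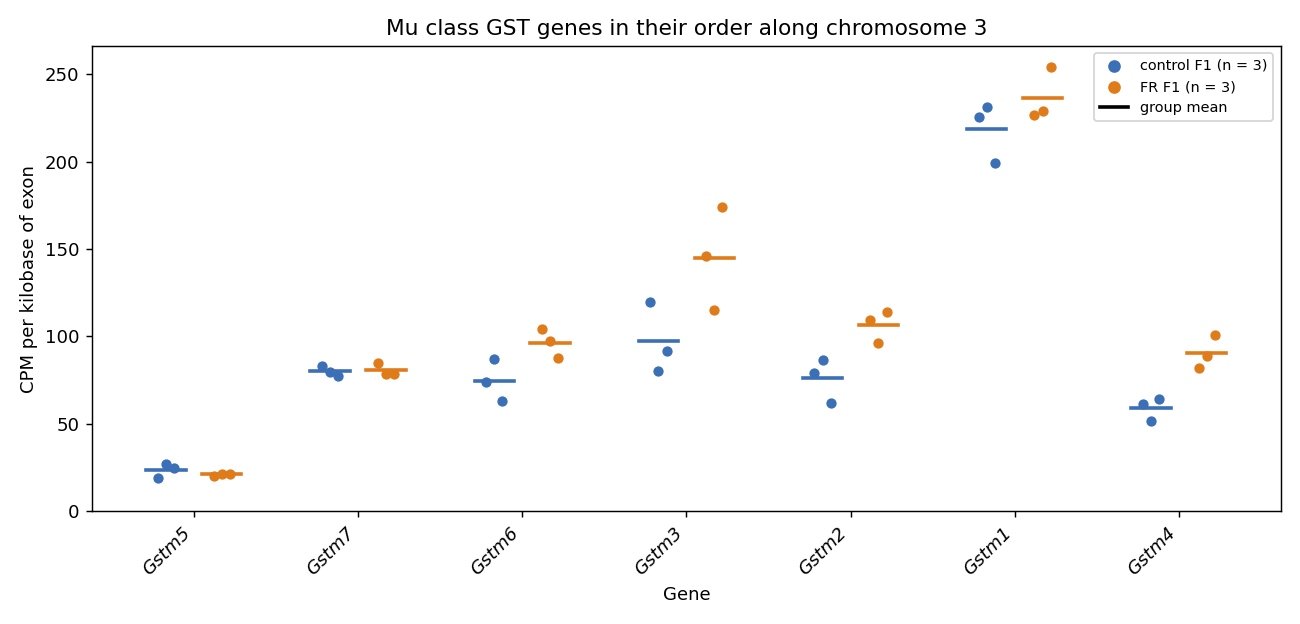
Levels of the 7 mu class glutathione S-transferase genes in their order along chromosome 3, in CPM per kilobase of exon on a linear axis from 0, with 3 points per group (control F1 blue, FR F1 orange) and a bar at each group mean. Gstm1 is highest, at 218.5 in the control libraries and 237 in the FR libraries, and the FR F1 points lie above the control points in Gstm6, Gstm2 and Gstm4.

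In the alpha class, whose members conjugate lipid peroxidation products and bind bilirubin and haem, 3 of 4 genes were tested and all 3 had positive values. Gsta3 was at 0.03 ± 0.11, Gsta4, an enzyme for 4-hydroxynonenal, at 0.19 ± 0.15 and Gsta2 at 0.50 ± 0.47. Gsta2 had 59.8, 12.2 and 26.9 CPM in the control libraries and 46.4, 55.3 and 38.6 CPM in the FR libraries, which overlap, and 64.2% of its stretches are shared, most of them with Gsta1. The pi class holds Gstp1, a near neighbour Gstp2 and Gstp3. Gstp3 had 54.2, 50.03 and 44.5 CPM in the control libraries and 53.1, 49.8 and 269.6 CPM in the FR libraries. The log2 fold change of 1.32 ± 0.62 (adjusted p = 0.303) therefore rests on FR F1 replicate 3, which held 657 counts where the other 5 held 111 to 142, and it was 0.06 ± 0.19 without that library. Gstp2 was also highest there, at 27.5 CPM against 9.35 to 17.8 CPM in the other libraries, and Gstp1 ranged from 172 to 206 CPM with its highest value there. Gstp1 and Gstp2 share 62.3% and 72.6% of their stretches with other transcripts, mostly with each other, and Gstp3 shares none.

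Of the theta class, Gstt3 had 51.6, 54.1 and 52.6 CPM in the control libraries and 43.4, 38.0 and 45.6 CPM in the FR libraries. The groups do not overlap, and the log2 fold change was -0.32 ± 0.16 (adjusted p = 0.318). Gstt2 (-0.30 ± 0.17) and Gstt1, a haloalkane transferase (0.08 ± 0.12), overlap between groups. The zeta gene Gstz1, which encodes maleylacetoacetate isomerase of tyrosine breakdown, had 461, 472 and 464.5 CPM in the control libraries and 411, 438 and 455 CPM in the FR libraries, and a log2 fold change of -0.10 ± 0.09 (adjusted p = 0.562). The omega gene Gsto1, a thioltransferase and dehydroascorbate reductase, had 142, 142 and 141 CPM in the control libraries and 129, 133 and 133 CPM in the FR libraries, and a log2 fold change of -0.11 ± 0.11 (adjusted p = 0.619). Both lie below control in all 3 FR F1 libraries although the differences are small and did not pass. Gstk1, the kappa enzyme of mitochondria and peroxisomes, was at 0.10 ± 0.17.

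The microsomal glutathione S-transferases are membrane enzymes. Mgst1, the abundant liver form, had 352, 320.0 and 285 CPM in the control libraries and 299.9, 301 and 353 CPM in the FR libraries, which overlap, with a log2 fold change of -0.01 ± 0.12. Mgst3 was at 23.5 ± 4.33 CPM in the control libraries and 27.1 ± 7.46 CPM in the FR libraries (0.20 ± 0.27).

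UDP-glucuronosyltransferases of the UGT1 family are made from 1 locus on chromosome 1, in which each gene has its own first exon and all share the following exons. In the annotation only 39.4% to 49.7% of the exonic bases of each UGT1 gene are its own, so counts of these genes depend on how shared reads were treated, which the sources used here do not give. Ugt1a1, the bilirubin transferase (ENSMUSG00000089960.1, 88211959 to 88218997), had 79.4, 81.1 and 130.4 CPM in the control libraries and 65.1, 74.8 and 63.6 CPM in the FR libraries. FR F1 libraries all lay below the control libraries, of which replicate 3 was the highest. The log2 fold change was -0.52 ± 0.22 (adjusted p = 0.269), and -0.25 ± 0.16 without control F1 replicate 3. A transcript on the opposite strand, Gm20528, overlaps 41.5% of the exonic bases of Ugt1a1, and the strand setting of the counts is not given.

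Among the other UGT1 genes, Ugt1a6b and Ugt1a6a, transferases for small phenols, were at -0.37 ± 0.32 and -0.22 ± 0.20. Ugt1a6b also had its highest value in control F1 replicate 3, 50.3 CPM against 22.1 to 28.7 CPM in the other libraries, and its log2 fold change was 0.07 without it. Ugt1a9 was at -0.0001 ± 0.32, with 71.1, 88.3 and 51.4 CPM in the control libraries and 61.3, 102 and 46.8 CPM in the FR libraries, and Ugt1a5 was at 0.11 ± 0.45.

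The UGT2 genes, which conjugate steroids, bile acids and many drugs, lie in a cluster on chromosome 5 and include the highest levels per kilobase after Gstm1. Ugt2b36, Ugt2b1 and Ugt2b5 had 202, 201 and 197 CPM per kilobase over the 6 libraries, and Ugt2a3 had 122. Of 8 tested UGT2 genes, 7 had values above 0, the median log2 fold change was 0.21, and edgeR called 0 (0 were under an unadjusted p of 0.05, and the other tools, DESeq2 and limma-voom, also called 0). Control F1 replicate 3 was the lowest library in the sum, with 1038, 892 and 614 CPM per kilobase in the control libraries and 974, 1085 and 932 CPM per kilobase in the FR libraries. Without that library 4 of 8 were positive and the median was -0.002.

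Ugt2b5 had 396, 325 and 243 CPM in the control libraries and 400.1, 424 and 404 CPM in the FR libraries. The groups do not overlap, although control F1 replicate 1 lies within 4 CPM of FR F1 replicate 1, and the log2 fold change was 0.35 ± 0.17 (adjusted p = 0.314). Of its stretches 41.7% occur in other transcripts, most of them in Ugt2b38. Ugt2b35 had 313.5, 306 and 188 CPM in the control libraries and 342, 403.5 and 293 CPM in the FR libraries, which overlap (0.36 ± 0.21, adjusted p = 0.386). Ugt2b1 had 621, 503.5 and 309 CPM in the control libraries and 559, 608 and 499.8 CPM in the FR libraries, which overlap (0.22 ± 0.23). Ugt2b36 (0.20 ± 0.17), Ugt2b34 (0.24 ± 0.24), Ugt2b38 (0.21 ± 0.31), Ugt2a3 (0.04 ± 0.19) and Ugt2b37 (-0.19 ± 0.41) did not separate the groups either.

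Of the UGT3 pair, whose human counterparts use sugars other than glucuronic acid, Ugt3a2 had 219.8, 327 and 225.5 CPM in the control libraries and 191, 246.5 and 198 CPM in the FR libraries, a log2 fold change of -0.28 ± 0.18 (adjusted p = 0.439). Ugt3a1 was at 0.14 ± 0.14. Ugt8a, the galactosyltransferase of myelin lipid synthesis, had 4 counts in all.

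N-acetyltransferases did not pass with edgeR, DESeq2 or limma-voom. Nat2, an arylamine acetyltransferase, had 51.6, 32.9 and 25.7 CPM in the control libraries and 45.6, 55.3 and 50.9 CPM in the FR libraries, which overlap through control F1 replicate 1 (0.46 ± 0.26, adjusted p = 0.376). Nat8, which acetylates cysteine conjugates in the last step of mercapturate formation, had 35.6, 33.8 and 48.3 CPM in the control libraries and 65.4, 61.5 and 27.5 CPM in the FR libraries. FR F1 replicate 3 is the lowest of the 6 and the other FR F1 libraries are the highest, so the groups overlap (0.39 ± 0.33, adjusted p = 0.538).

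**Figure D4:**
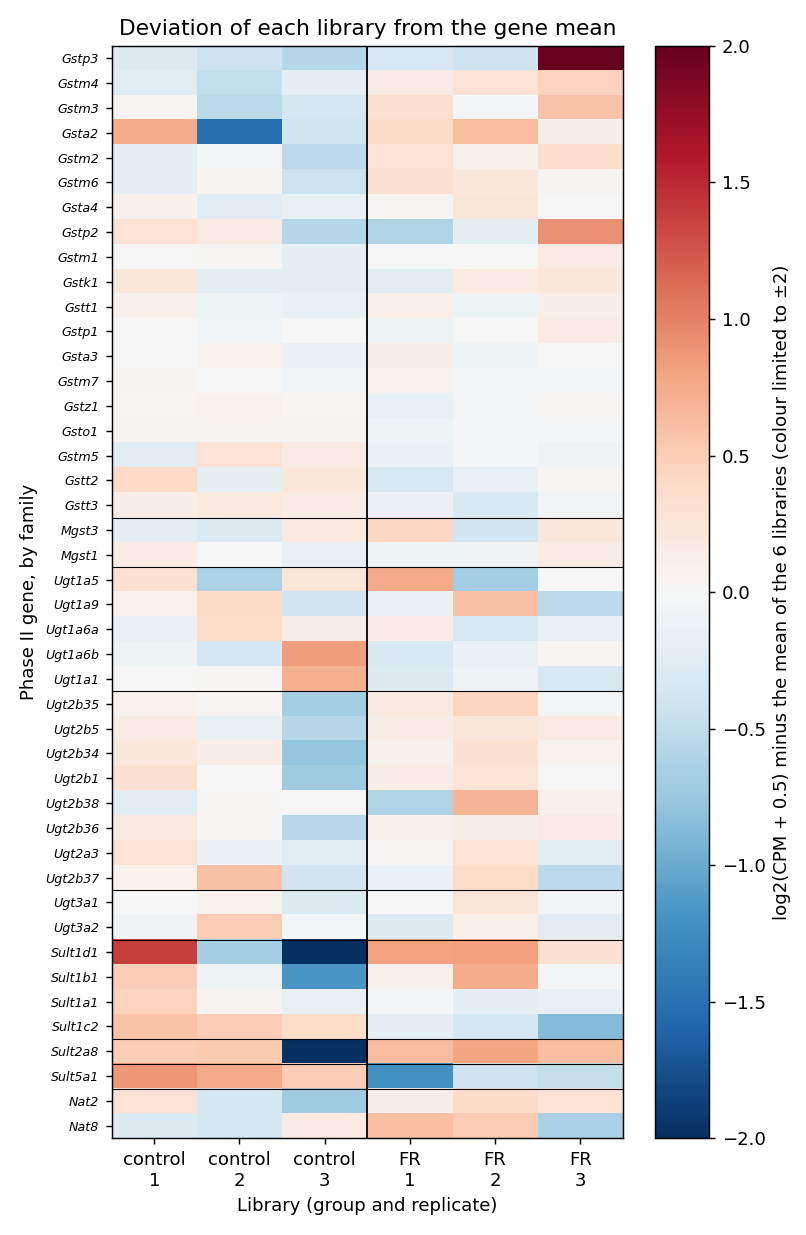
Heatmap of the 44 tested phase II genes (rows, by family) in the 6 libraries (columns), coloured by log2(CPM + 0.5) minus the gene's mean over the libraries, with colours limited to ±2. The control F1 replicate 3 column is the lowest for 18 genes, among them Sult2a8 and Sult1d1, and the Sult5a1 row is low in all 3 FR F1 libraries.

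The remaining 27 members had too few counts for the test, and 7 of them had 0 counts in every library. Those with at least 10 counts over the 6 libraries were Nat1 (37 counts), Gsto2 (36), Sult2a7 (36), Gsta1 (27), Ugt1a10 (18) and Ugt1a7c (15). Nat1 had 9, 4 and 1 counts in the control libraries and 12, 9 and 2 in the FR libraries, which overlap. Sult2a1 to Sult2a6, a group known for higher expression in female mouse liver, held 0 or 1 count each, and the oestrogen sulfotransferase gene Sult1e1 held 1. A count of 0 in a library still allows up to 3 counts, a limit that covers counting error only.

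Genes that supply, regulate or follow the conjugation reactions were taken from lists of known pathway genes. For the counts below, the unadjusted p was under 0.05 in 17.9% of all tested genes, 9.02% positive and 8.88% negative. Over the whole table edgeR called 0.837% and limma-voom 0.791% of tested genes, and DESeq2 called 2.75% of genes with an adjusted p. The P450 reductase gene Por, which passes electrons to the microsomal cytochromes P450 that precede conjugation, fell. It had 421.5, 478 and 454 CPM in the control libraries and 199, 182 and 275 CPM in the FR libraries, with no overlap and a log2 fold change of -1.05 ± 0.16 (adjusted p = 0.0385). The call was lost without control F1 replicate 2 (adjusted p = 0.138), FR F1 replicate 1 (0.184) or FR F1 replicate 2 (0.155), and with a replicate block (0.0770). Por was 1 of 14 phase I and reductase genes tested, and the other 13 did not pass, with Nqo1 at -0.29 ± 0.32 and Ephx1, a microsomal epoxide hydrolase, at 0.21 ± 0.10.

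Of 14 tested genes of glutathione supply, 0 were called by edgeR (3 had an unadjusted p under 0.05, DESeq2 called 3 and limma-voom called 0), and the median log2 fold change was 0.06. Gclc, the catalytic subunit of the first enzyme of glutathione synthesis, had 282, 314 and 299.6 CPM in the control libraries and 477.5, 453 and 396 CPM in the FR libraries. The groups do not overlap, and the log2 fold change was 0.57 ± 0.11 (adjusted p = 0.0674 by edgeR, 0.0168 by DESeq2). Gss, the enzyme of the second step, had 201, 196 and 201 CPM in the control libraries and 114, 130.1 and 143 CPM in the FR libraries, a log2 fold change of -0.63 ± 0.12 (adjusted p = 0.0762 by edgeR, 0.0184 by DESeq2). The enzymes of the successive steps thus had values of opposite sign. Anpep, an aminopeptidase that splits cysteinylglycine conjugates, was at -0.70 ± 0.15 (adjusted p = 0.0780 by edgeR, 0.0127 by DESeq2), and Gclm, the regulatory subunit beside Gclc, was at 0.40 ± 0.21 with overlapping groups.

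In the list for PAPS and sulfate, 0 of 10 tested genes were called by edgeR (2 had an unadjusted p under 0.05, DESeq2 called 2 and limma-voom called 0). Slc26a1, a sulfate transporter, had 372, 372 and 435 CPM in the control libraries and 274, 275 and 281.5 CPM in the FR libraries, and Slc35b2, which carries PAPS into the Golgi, had 146, 141.5 and 142 CPM in the control libraries and 102, 90.7 and 92.3 CPM in the FR libraries. Both lie wholly below control, at -0.51 ± 0.10 and -0.59 ± 0.12 (adjusted p = 0.0780 for each). The PAPS synthase genes Papss2 (-0.07 ± 0.15) and Papss1 (0.26 ± 0.20) overlap between groups. For UDP-glucuronate supply 0 of 9 genes were called by edgeR, limma-voom or DESeq2, and 1 had an unadjusted p under 0.05. That gene, the phosphoglucomutase gene Pgm1, was at -0.22 ± 0.09, while Ugdh, which oxidises UDP-glucose to the glucuronate donor, was at 0.27 ± 0.16.

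Other conjugation routes and the enzymes that reverse conjugation had 0 genes called by edgeR or limma-voom, and DESeq2 called 1 methyl conjugation and 1 amino acid conjugation gene. The unadjusted p was under 0.05 in 2 methyl conjugation, 1 amino acid conjugation and 1 acetyl-CoA supply genes. Among 10 methyl conjugation genes, the arsenite methyltransferase gene As3mt had 60.7, 75.3 and 42.6 CPM in the control libraries and 26.9, 20.3 and 21.7 CPM in the FR libraries, with no overlap and a log2 fold change of -1.37 ± 0.25 (adjusted p = 0.0576). Among 9 amino acid conjugation genes the smallest p was that of Gm4952 (0.90 ± 0.24, adjusted p = 0.134), and among 9 acetyl-CoA supply genes that of Acss3 (1.37 ± 0.54, adjusted p = 0.246). The 8 deconjugation genes had a median log2 fold change of -0.41, with 7 negative. At an unadjusted p under 0.05 were 4 genes, all negative, beside 8.88% of tested genes. They include Gusb, the beta-glucuronidase, at -0.61 ± 0.15 (adjusted p = 0.109), the arylsulfatase gene Arsa at -0.58 ± 0.15 and the aminoacylase genes Acy3 and Acy1 at -0.41 ± 0.14 and -0.41 ± 0.13. All 4 lay below control in all FR F1 libraries, beside 13.2% of tested genes.

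**Figure D5:**
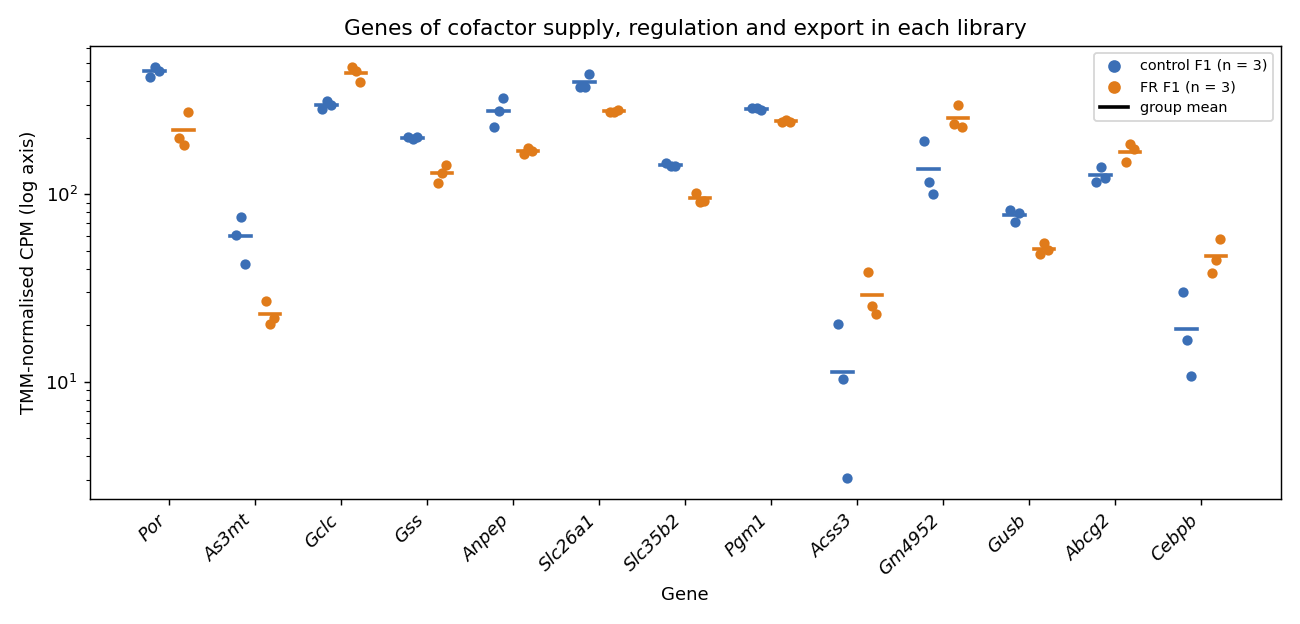
Levels of 13 genes of electron and cofactor supply, other conjugation, deconjugation, export and regulation by library (log axis, TMM-normalised CPM), with 3 control F1 (blue) and 3 FR F1 (orange) points and a bar at each group mean. Por lies between 421.5 and 478 CPM in the control libraries and between 182 and 275 CPM in the FR libraries, and Gclc lies higher and Gss lower in all 3 FR F1 libraries.

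Of 14 tested regulators, 0 were called by edgeR (4 had an unadjusted p under 0.05, DESeq2 called 1 and limma-voom called 0), and their median was -0.10. Nfe2l2, which encodes NRF2, had 149, 132 and 162 CPM in the control libraries and 189.6, 145 and 149 CPM in the FR libraries (0.13 ± 0.15), and its repressor Keap1 was at -0.10 ± 0.16. Ahr had 64.2, 46.4 and 34.9 CPM in the control libraries and 105, 67.1 and 84.9 CPM in the FR libraries, with no overlap (0.82 ± 0.26, adjusted p = 0.176). Nr1i3, which encodes CAR, and Nr1i2, which encodes PXR, were at -0.18 ± 0.16 and -0.32 ± 0.20. Hnf4a was at -0.35 ± 0.10 (adjusted p = 0.153), Rxra at -0.31 ± 0.11 and Cebpb at 1.29 ± 0.36 (adjusted p = 0.141), each with groups that do not overlap. Among 6 export genes Abcg2, an efflux pump for sulfate and glucuronide conjugates, was at 0.42 ± 0.14 (adjusted p = 0.194), and it alone had an unadjusted p under 0.05, while edgeR, DESeq2 and limma-voom called 0 of the 6.

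Some phase II enzymes are known for higher levels around the central vein of the liver lobule. Pericentral hepatocyte genes, 13 in number, had a median log2 fold change of -0.03 with 0 called by edgeR or limma-voom and 1 by DESeq2 (3 had an unadjusted p under 0.05). The smallest p was that of Cyp7a1, the rate-limiting enzyme of bile acid synthesis, at -1.93 ± 0.47 (adjusted p = 0.112 by edgeR, 0.000946 by DESeq2). Periportal hepatocyte genes, 14 in number, had a median of -0.25, with 13 negative. In 6 of them the FR libraries lay wholly below the control libraries, beside 13.2% of tested genes, and 6 negative ones had an unadjusted p under 0.05, beside 8.88%. DESeq2 called 2, limma-voom 1 and edgeR 1, which was Aldh1b1 at -1.29 (adjusted p = 0.0226, and 0.0908 to 0.132 without any 1 FR library).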

How the data were processed

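Raw counts per gene for the 6 liver libraries were deposited as 1 table. STAR, StringTie, HTSeq, DESeq2 and mm10 are named in the submitters' processing notes, without versions. The sources used here do not give the strand setting or the treatment of shared and duplicate reads. Columns were matched to samples through their descriptions, and 0 other per-sample columns were present. Of 53715 genes, 53620 matched GENCODE M21 on Ensembl ID, which gave symbols and mm10 positions. Replicates differed beyond counting noise (4.29 to 14.6 chi-square per degree of freedom), so none was a duplicate.

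Counts were tested in edgeR 4.0.16 (R 4.3.3) after filterByExpr (minimum count 10, minimum total 15) with TMM, glmQLFit and glmQLFTest, two-sided, with Benjamini-Hochberg adjustment over 13022 genes. An SE is the log2 fold change divided by the square root of F. The script was tested on simulated counts. Alternatives were DESeq2 1.42.0, limma-voom (limma 3.58.1), 2 other scalings, 2 other filters, fits without each library in turn, a replicate block and 2 treatments of near-limit counts. CPM per kilobase uses the union of exons. Overlap of transcripts was checked by shared 50-base stretches.

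The members and gene lists were chosen with earlier results of these data known. Named genes were those past the threshold, the 2 smallest p per family, the 8 highest levels per kilobase, the 2 highest and 2 lowest log2 fold changes, and untested members with at least 10 counts. In each companion list they were the called genes or else the smallest p. The other genes were named after their values were seen. Some values of 1 marker are not reported here.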

Additional observations from a re-analysis of the deposited data

How the results depend on the processing

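The members have limited depth, with 2279755 to 2730160 counts per library, and 3 libraries a group. Of all tested genes 109 passed in the reported fit, 1251 with no filter on low counts, 423 by DESeq2, 21 with a replicate block and 7 to 651 with 1 library left out, and the causes were not tested. The members called numbered 1 in the reported fit, 5 with no filter, 2 by DESeq2, 0 with the block and 0 to 1 with 1 library left out. Same-numbered libraries correlated at -0.02, 0.11 and 0.15 in their deviations from the group means, and control F1 replicate 1 correlated best with FR F1 replicate 2 (0.15), so the numbers were not taken as pairs. With the replicate block the adjusted p was 0.0931 for Sult5a1, 0.0770 for Por and 0.106 for Pdgfra. The UGT1 median ranged from -0.37 to -0.15 with 1 library left out. Log2 fold changes near 0 changed sign under some settings. Gstm7 was at -0.0033 with no filter. Mgst1 was at 0.0032 with RLE factors, 0.0029 with upper quartile factors and 0.062 with expanded counts. Ugt1a9 was at 0.0094, 0.013 and 0.011 under the same settings, 0.0021 with a filter of 1 CPM in 3 libraries and 0.00020 without genes near the count limit. With 1 library left out, the log2 fold change ranged from -0.022 to 0.079 for Gsta3, -0.017 to 0.038 for Gstm7, -0.024 to 0.107 for Gstp1, -0.39 to 0.47 for Gstp2, -0.084 to 0.070 for Mgst1, -0.037 to 2.03 for Sult1d1, -0.36 to 0.41 for Ugt1a5, -0.60 to 0.067 for Ugt1a6b, -0.38 to 0.23 for Ugt1a9, -0.098 to 0.22 for Ugt2a3, -0.021 to 0.45 for Ugt2b1, -0.016 to 0.41 for Ugt2b34, -0.48 to 0.10 for Ugt2b37 and -0.17 to 0.49 for Ugt2b38. Genes near the count limit, 6 of them members, give no value in the fit that leaves them out.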
